A study of Mus musculus with 13 samples.

Results

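The pre-B-cell receptor and the proteins next to it in its signalling chain were followed through 9 genes in sorted common lymphoid progenitors (CLPs) of mouse bone marrow. They are Igll1, Vpreb1, Vpreb2 and Vpreb3 for the surrogate light chain group, Cd79a and Cd79b for the signal-transducing subunits, and Blnk, Blk and Syk for the signalling proteins. The genes were taken by symbol with no threshold on their levels, from a list drawn up with earlier results of these data known, and all 9 were among the 24072 RefSeq identifiers counted. Every mouse was wild-type C57BL/6, and CLPs were separated by flow cytometry on the surface proteins Ly6D and Gfra2. Total RNA gave 3 libraries from the Ly6D+Gfra2+ sort, 4 from Ly6D+Gfra2- and 6 from Ly6D-Gfra2-. The age and sex of the mice are not given in the sources used here, nor whether replicates are separate animals, so the spread behind each p-value may be technical.

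In a B-cell precursor that has made an immunoglobulin heavy chain but no light chain yet, the heavy chain pairs with a surrogate light chain. That stand-in is built from the product of Igll1 and a VpreB chain, encoded in the mouse by Vpreb1 and its close copy Vpreb2, while the Vpreb3 product binds newly made heavy chains inside the cell. CD79a and CD79b carry the signal across the membrane, the Src-family kinase Blk and the kinase Syk act on their tails, and the adaptor Blnk links Syk to the enzymes further down. In mouse bone marrow Igll1, the Vpreb genes and Cd79a are known for coming on as lymphoid progenitors enter the B lineage, before the receptor itself can be assembled.

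Positions follow RefSeq's annotation of GRCm38.p6, also called mm10. Igll1 (NM_001190325, chromosome 16, 16860671 to 16863985) and Vpreb1 (NM_016982, chromosome 16, 16868401 to 16869255) are neighbours, 4415 bases apart. Vpreb2 (NM_016983) lies further along chromosome 16, from 17979445 to 17981274. Vpreb3 (NM_009514) is on chromosome 10 from 75943024 to 75949657, Cd79a (NM_007655) on chromosome 7 from 24897497 to 24901858, and Cd79b (NM_008339) on chromosome 11 from 106311341 to 106314562. Blnk (NM_008528) is on chromosome 19 from 40928927 to 40994221. Its nearest counted neighbours are Zfp518a, 10979 bases away, and on the other side Dntt, the gene of terminal transferase, 35053 bases away. Blk (NM_007549) is on chromosome 14 from 63372837 to 63417187 and Syk (NM_001198977) on chromosome 13 from 52582610 to 52648792. A pseudogene, Gm16221, overlaps Vpreb3 and a long noncoding RNA, Gm36165, overlaps Blk. Neither was counted on its own, and strand is not stated, so their reads cannot be told apart from those of Vpreb3 and Blk.

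The promoters of the genes that were high together in the Ly6D+Gfra2+ libraries are printed here, as RefSeq gives them for GRCm38.p6, from 250 bases before to 50 bases after the annotated start, 5′ to 3′ on the gene's strand. Promoters were found for 7 of the 9 genes. Igll1 is at chr16:16863936-16864235 (minus strand), Vpreb3 at chr10:75948050-75948349 (plus) and Cd79a at chr7:24897247-24897546 (plus), and capitals in these mark matches to the 5 motifs given after the sequences. Vpreb1 is at chr16:16869206-16869505 (minus) and Vpreb2 at chr16:17980315-17980614 (plus). Capitals in these 2 mark bases that are the same in both at the shift given after the sequences, not at equal distances from the start. The Vpreb2 and Vpreb3 windows lie inside the gene bounds given above, so their annotated starts are internal to the genes.
Igll1: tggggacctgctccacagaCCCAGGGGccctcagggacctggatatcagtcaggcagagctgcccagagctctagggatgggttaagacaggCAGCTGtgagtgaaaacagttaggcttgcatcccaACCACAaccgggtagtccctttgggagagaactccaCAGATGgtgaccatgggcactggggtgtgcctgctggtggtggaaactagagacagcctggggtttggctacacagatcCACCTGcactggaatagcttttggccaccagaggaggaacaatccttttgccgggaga
Vpreb3: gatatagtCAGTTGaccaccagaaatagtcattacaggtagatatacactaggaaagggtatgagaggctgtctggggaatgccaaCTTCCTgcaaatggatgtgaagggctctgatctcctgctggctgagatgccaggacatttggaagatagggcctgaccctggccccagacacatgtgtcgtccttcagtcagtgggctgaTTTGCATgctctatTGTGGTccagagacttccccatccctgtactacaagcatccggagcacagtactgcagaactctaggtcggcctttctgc
Cd79a: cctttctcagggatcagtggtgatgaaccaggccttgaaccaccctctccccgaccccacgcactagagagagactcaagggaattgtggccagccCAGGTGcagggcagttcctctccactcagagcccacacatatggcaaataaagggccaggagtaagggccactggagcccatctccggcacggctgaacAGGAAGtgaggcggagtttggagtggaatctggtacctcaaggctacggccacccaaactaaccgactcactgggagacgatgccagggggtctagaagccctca
Vpreb1: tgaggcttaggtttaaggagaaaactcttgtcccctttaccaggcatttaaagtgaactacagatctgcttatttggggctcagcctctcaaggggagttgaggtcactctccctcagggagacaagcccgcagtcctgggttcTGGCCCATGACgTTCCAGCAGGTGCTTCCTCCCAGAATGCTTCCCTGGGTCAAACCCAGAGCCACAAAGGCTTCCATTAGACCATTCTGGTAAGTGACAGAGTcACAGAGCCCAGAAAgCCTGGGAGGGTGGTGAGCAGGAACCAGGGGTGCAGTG
Vpreb2: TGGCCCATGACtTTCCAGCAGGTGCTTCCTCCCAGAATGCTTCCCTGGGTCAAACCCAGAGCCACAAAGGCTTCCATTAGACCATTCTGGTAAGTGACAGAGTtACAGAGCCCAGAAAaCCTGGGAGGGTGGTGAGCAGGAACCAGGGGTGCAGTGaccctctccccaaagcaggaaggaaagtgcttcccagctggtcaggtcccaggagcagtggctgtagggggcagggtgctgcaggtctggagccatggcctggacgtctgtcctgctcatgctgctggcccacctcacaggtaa

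Over the 156 bases that the Vpreb1 and Vpreb2 windows share, 153 are identical (98.1%). Their transcripts are identical at 739 of 759 aligned bases (97.4%), and 233 of the 717 stretches of 50 bases in Vpreb1 (32.5%) also occur in Vpreb2. Reads from such stretches fit both genes, and how the counting treated them is not stated, so the split of counts between Vpreb1 and Vpreb2 is uncertain.

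The motifs were searched on both strands, and positions are those of the first base, counted from the annotated start. The EBF motif CCCNNGGG, present in 13.7% of 32851 RefSeq mouse promoters of the same length, occurred once, in Igll1 at -231. The E-box CAGNTG, present in 51.4% of all promoters, occurred in all 5 sequences. The octamer ATGCAAA, in 4.63% of all promoters, occurred in Vpreb3 at -44 and, outside the printed set, in Blnk at -129. The Runx motif TGTGGT, in 16.8%, occurred in Igll1 at -123 and Vpreb3 at -30, and the Ets motif AGGAAG, in 35.4%, in each printed promoter other than Igll1. In Vpreb3 the octamer and the Runx match lie close together just before the annotated start used, which is internal to the gene bounds. These are letter matches, not measured binding.

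Library totals ran between 9287598 and 9771228 counts in Ly6D+Gfra2+, 9200722 and 20098978 in Ly6D+Gfra2- and 6892728 and 23705975 in Ly6D-Gfra2-. Levels are counts per 1000000 counts (CPM) of the TMM-scaled library size, and 3 counts correspond to between 0.133 and 0.389 CPM in a library. The library names begin with P or T, a prefix whose meaning is not stated. Every Ly6D+Gfra2+ library carries T, as do the replicates numbered 4 to 6 elsewhere, and those numbered 1 to 3 carry P. Of the CLP markers Il7r, Flt3, Kit, Cd27, Ly6d, Gfra2 and Dntt, 6 or 7 of 7 had counts in every library. Gfra2 was at 287, 515 and 365 CPM in Ly6D+Gfra2+ replicates 4, 5 and 6 and no higher than 14.7 CPM in any other. Ly6d was at 171 to 283 CPM in Ly6D+Gfra2+, 158 to 507 in Ly6D+Gfra2- and 0.623 to 8.30 in 5 Ly6D-Gfra2- libraries, but the library labelled Ly6D-Gfra2- replicate 3 held 213 CPM, against its label. That library also held 299 CPM of the plasmacytoid dendritic cell gene Siglech, against 15.7 to 54.9 in the other Ly6D-Gfra2- libraries. The library labelled Ly6D-Gfra2- replicate 5 held 177 CPM of the granulocyte gene S100a9 and 141 CPM of the haemoglobin gene Hbb-bs, the highest of all 13.

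The surrogate light chain genes were high in every Ly6D+Gfra2+ library and low or at 0 in nearly all others. Igll1 was at 98.3, 165 and 65.8 CPM in Ly6D+Gfra2+ replicates 4, 5 and 6. It had a single count, 0.0933 CPM, in Ly6D+Gfra2- replicate 5 and none in the other 3 libraries of that group. In the Ly6D-Gfra2- libraries it ran from 0 over a median of 0 to 0.992 CPM. Ly6D+Gfra2+ therefore overlapped neither other group, and of the 13 counts in Ly6D-Gfra2- 12 were in replicate 5. In bulk libraries, fewer cells with a transcript and fewer copies per cell cannot be told apart.

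Vpreb1, for the variable-region-like chain, was at 37.1, 42.0 and 20.4 CPM in Ly6D+Gfra2+ replicates 4, 5 and 6. Ly6D+Gfra2- replicates 1, 2, 5 and 6 had 13.4, 0.102, 0.187 and 1.01 CPM. Ly6D-Gfra2- libraries ran from 0 over a median of 0.124 to 2.53 CPM, the highest being replicate 3. Every Ly6D+Gfra2+ library lay above every other library, but Ly6D+Gfra2- replicate 1, with 206 counts, came much closer to them than its own group did.

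Vpreb2, the close copy, was at 12.3, 10.8 and 36.3 CPM in Ly6D+Gfra2+ replicates 4, 5 and 6. Ly6D+Gfra2- replicates 1, 2, 5 and 6 had 0, 1.37, 0.840 and 1.12 CPM, and Ly6D-Gfra2- libraries ran from 0 over a median of 0.0595 to 1.80 CPM, again highest in replicate 3. No library outside Ly6D+Gfra2+ reached the lowest value inside it. The Ly6D+Gfra2+ library with the least Vpreb1, replicate 6, had the most Vpreb2.

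Vpreb3, for the heavy-chain-binding protein, was at 94.3, 87.6 and 72.8 CPM in Ly6D+Gfra2+ replicates 4, 5 and 6 (84.9 ± 11 CPM, SD, n = 3). The 4 Ly6D+Gfra2- libraries, in replicate order, had 0, 1.22, 0 and 2.44 CPM. Ly6D-Gfra2- libraries ran from 0 over a median of 0.124 to 4.88 CPM, the highest being replicate 5, the same library that held most Igll1 counts of its group. Summed over the 4 genes, Ly6D+Gfra2+ libraries held 242, 305 and 195 CPM, Ly6D+Gfra2- libraries 13.4, 2.69, 1.12 and 4.57 CPM, and Ly6D-Gfra2- libraries between 0 and 6.12 CPM.

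**Figure D1:**
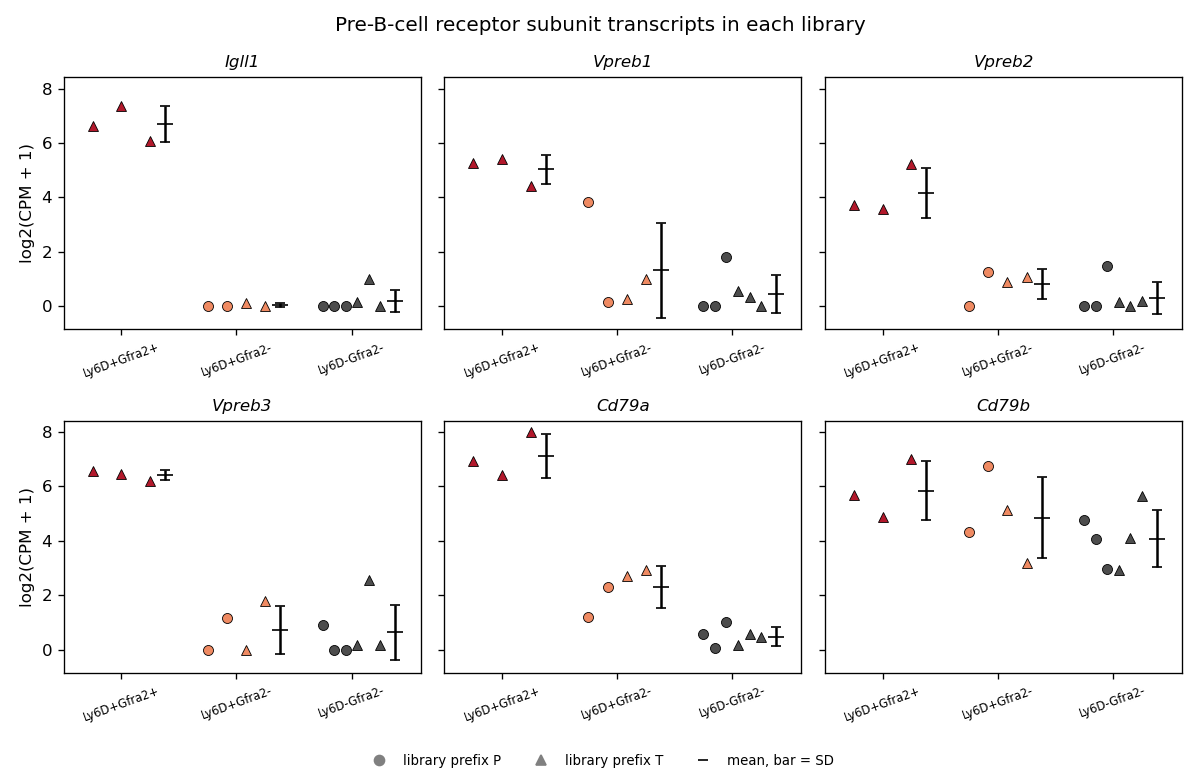
Level of the 6 receptor genes in each library as log2(CPM + 1), by sorted group, with circles for library prefix P, triangles for T, and the mean with its SD beside each group. Igll1, the Vpreb genes and Cd79a stood apart in Ly6D+Gfra2+, while Cd79b overlapped between all groups; Vpreb1 had 13.4 CPM in 1 Ly6D+Gfra2- library.

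The signal-transducing subunits behaved unlike each other. Cd79a was at 121, 84.6 and 254 CPM in Ly6D+Gfra2+ replicates 4, 5 and 6, and at 1.30, 3.96, 5.60 and 6.60 CPM in Ly6D+Gfra2- replicates 1, 2, 5 and 6. Ly6D-Gfra2- libraries ran from 0.0445 over a median of 0.443 to 1.02 CPM. The 3 groups were thus in steps that did not overlap, the highest Ly6D-Gfra2- value, of the library labelled replicate 3, lying just under the lowest Ly6D+Gfra2- value.

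Cd79b, the partner of Cd79a, was at 50.05, 28.1 and 128 CPM in Ly6D+Gfra2+ replicates 4, 5 and 6. Ly6D+Gfra2- replicates 1, 2, 5 and 6 had 19.3, 106, 34.1 and 8.02 CPM, and Ly6D-Gfra2- libraries ran from 6.55 over a median of 16.03 to 48.5 CPM. All 3 groups overlapped, and the second highest library of all 13 was Ly6D+Gfra2- replicate 2. Cd79b was therefore well above the level of 3 counts in every library, including those in which Cd79a was near it.

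Per kilobase of transcript, the level of Cd79a was 1.98, 2.47 and 1.63 times that of Cd79b in Ly6D+Gfra2+ replicates 4, 5 and 6. The ratio was 0.0552, 0.0307, 0.135 and 0.675 in Ly6D+Gfra2- replicates 1, 2, 5 and 6, and between 0.00232 and 0.123 in the Ly6D-Gfra2- libraries. As a share of the counts of both genes, Cd79a took 66.5% to 75.1% in Ly6D+Gfra2+, 3.61% to 45.1% in Ly6D+Gfra2- and 0.282% to 13.04% in Ly6D-Gfra2-. The Ly6D+Gfra2+ range lay above all other libraries, and the nearest was Ly6D+Gfra2- replicate 6 (45.1%, 95% Wilson interval 37.2% to 53.3%).

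For the VpreB pair, Vpreb1 took 75.2% of the counts of both genes in Ly6D+Gfra2+ replicate 4 (95% Wilson interval 70.9% to 79.0%), 79.6% in replicate 5 (75.6% to 83.1%) and 35.9% in replicate 6 (32.0% to 40.1%). In Ly6D+Gfra2- the share was 100% in replicate 1 (98.2% to 100%), 6.897% in replicate 2 (1.91% to 22.0%) and 47.6% in replicate 6 (28.3% to 67.6%). The library labelled Ly6D-Gfra2- replicate 3 had 58.4% (48.0% to 68.1%), and the remaining libraries had fewer than 20 counts over both genes. The share moved between libraries of 1 group by far more than counting error, and no direction between groups is read from it. Amplified reads are not independent molecules, so the intervals leave out all error but that of counting.

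**Figure D2:**
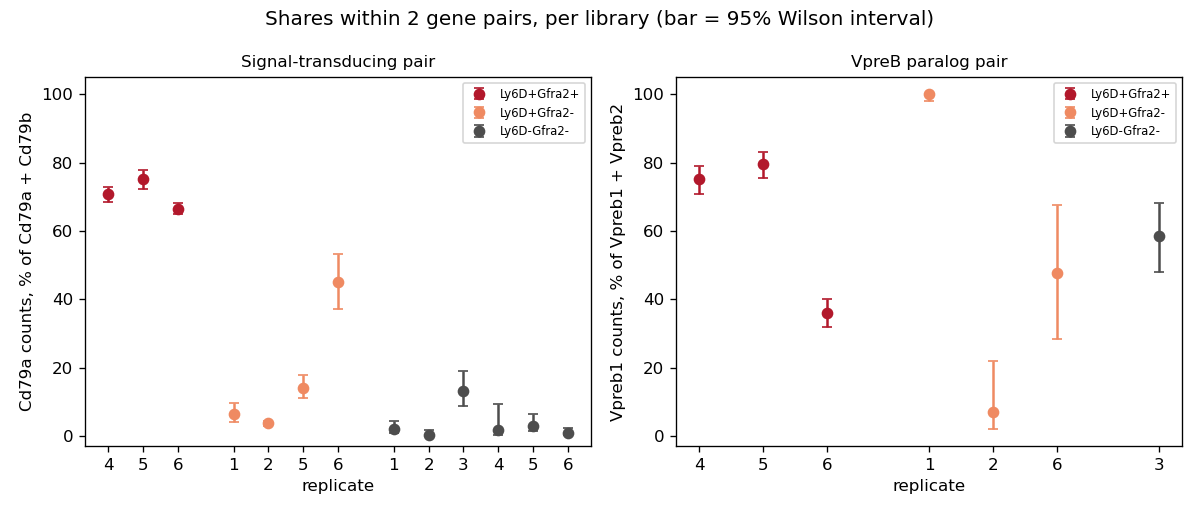
Share of Cd79a in the counts of Cd79a and Cd79b (left) and of Vpreb1 in those of Vpreb1 and Vpreb2 (right), in percent, per library, with 95% Wilson intervals; libraries with fewer than 20 Vpreb1 and Vpreb2 counts are left out on the right. Cd79a took over 66% only in the 3 Ly6D+Gfra2+ libraries, while the VpreB shares spread from 35.9% to 79.6% within that group.

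At 1 CPM or more, all 6 receptor genes were present in each of the 3 Ly6D+Gfra2+ libraries. Ly6D+Gfra2- replicates 1, 2, 5 and 6 had 3, 4, 2 and 5 of the 6. Among Ly6D-Gfra2- libraries the number was 1 in replicates 1, 2, 4 and 6, where it was Cd79b, 2 in replicate 5 and 4 in the library labelled replicate 3. The count of genes present thus separated Ly6D+Gfra2+ from the rest but ran together for the other groups.

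The signalling genes were present in all 13 libraries at levels far above the counting floor. Blnk, the adaptor, was at 350.5, 605 and 657 CPM in Ly6D+Gfra2+ replicates 4, 5 and 6, and at 303, 327, 292 and 204 CPM in Ly6D+Gfra2- replicates 1, 2, 5 and 6. In Ly6D-Gfra2- it ran from 84.4 over a median of 121 to 420.2 CPM. The highest of these was the library labelled replicate 3, the only one of its group that overlapped the Ly6D+Gfra2+ range, and the others ran from 84.4 to 176 CPM.

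Blk, the Src-family kinase, was at 116, 115 and 109 CPM in Ly6D+Gfra2+ replicates 4, 5 and 6, a narrow range (113 ± 3.71 CPM, SD, n = 3). Ly6D+Gfra2- replicates 1, 2, 5 and 6 had 54.2, 93.1, 91.2 and 65.7 CPM, and Ly6D-Gfra2- libraries ran from 3.97 over a median of 13.1 to 55.6 CPM. Ly6D+Gfra2+ lay above both other groups, and Ly6D+Gfra2- lay above Ly6D-Gfra2- save for the library labelled replicate 3, which at 55.6 CPM passed Ly6D+Gfra2- replicate 1.

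Syk, the kinase that binds the phosphorylated CD79 tails, was at 272, 293 and 373 CPM in Ly6D+Gfra2+ replicates 4, 5 and 6, and at 284, 412, 337 and 383 CPM in Ly6D+Gfra2- replicates 1, 2, 5 and 6. Ly6D-Gfra2- libraries ran from 216 over a median of 231 to 256 CPM. Both Ly6D+ groups lay above all Ly6D-Gfra2- libraries and overlapped each other. Syk was the 1 gene of the 9 with a lower mean in Ly6D+Gfra2+ (313 ± 53.7 CPM, SD, n = 3) than in Ly6D+Gfra2- (354 ± 55.6 CPM, SD, n = 4).

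**Figure D3:**
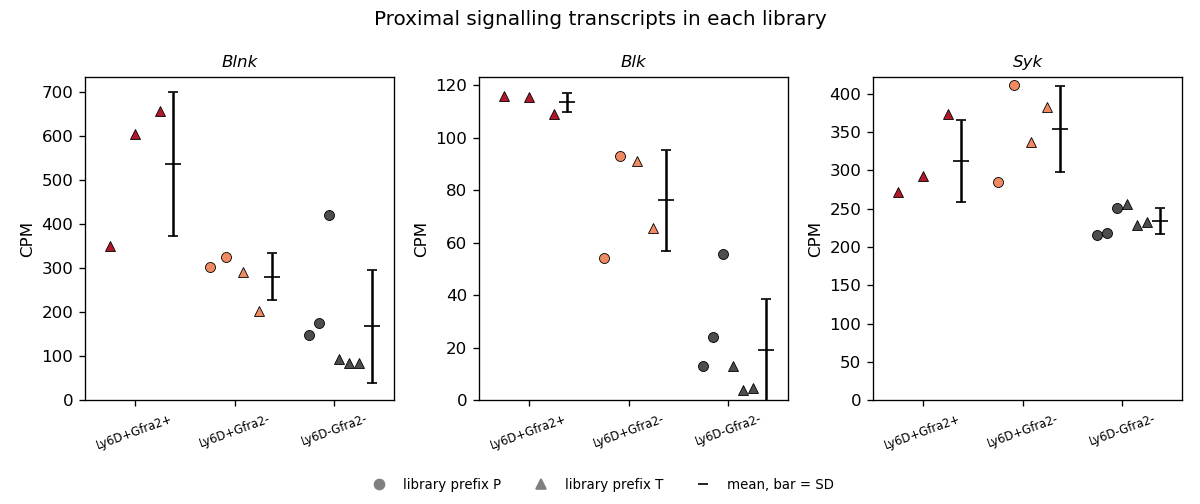
Level of Blnk, Blk and Syk in each library in CPM on linear axes, by sorted group, with circles for prefix P, triangles for T, and the mean with its SD. Blk and Blnk stepped down from Ly6D+Gfra2+ to Ly6D-Gfra2-, apart from 1 Ly6D-Gfra2- library at 420.2 CPM of Blnk and 55.6 CPM of Blk, and Syk was lowest in Ly6D-Gfra2-.

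The order of the genes within a group, per kilobase of transcript, differed between Ly6D+Gfra2+ and the other groups below Blnk, which was highest in all 3. In Ly6D+Gfra2+ the highest was Blnk, at 256 ± 78.2 CPM per kb (SD, n = 3), followed by Vpreb3 (136 ± 17.6), Igll1 (126 ± 57.9) and Cd79a (105.2 ± 61.3). Then came Syk (58.3 ± 10.01), Cd79b (57.5 ± 43.9), Blk (48.7 ± 1.60), Vpreb1 (43.3 ± 14.8) and Vpreb2 (26.1 ± 18.9). Blnk was above Vpreb3 in range, whereas Vpreb3, Igll1 and Cd79a overlapped each other, as did Syk and Cd79b and the genes ranked next to them. In Ly6D+Gfra2- the order was led by Blnk (134 ± 25.7, n = 4), Syk (66.0 ± 10.4), Cd79b (34.97 ± 36.8) and Blk (32.7 ± 8.25), with Vpreb1 at 4.79 ± 8.46 and Cd79a at 2.99 ± 1.59 CPM per kb. Ly6D-Gfra2- had the same 4 genes on top, Blnk at 80.1 ± 61.6 (n = 6), Syk at 43.6 ± 3.08, Cd79b at 16.7 ± 13.2 and Blk at 8.201 ± 8.32, and the 5 others under 2 CPM per kb. Surrogate light chain transcripts thus ranked 2, 3, 8 and 9 in Ly6D+Gfra2+ and between 5 and 9 in the other groups.

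The comparison of Ly6D+Gfra2+ with Ly6D+Gfra2- cells asks what goes with Gfra2 among cells that already carry Ly6D. Igll1 and Cd79a rose, Vpreb1, Vpreb2, Vpreb3, Blnk and Blk had higher means without passing the test, and Cd79b and Syk overlapped. Igll1 had 2840 counts in Ly6D+Gfra2+ and 1 count in Ly6D+Gfra2-, a ratio of 6008 after scaling with a 95% counting interval of 1077 to 237369. Counting intervals, here and below, pool the libraries of a group and leave out the spread between them. The fitted log2 fold change of Igll1 was 10.53 (SE 1.72), which rests on that 1 count and depends on the fit's prior count. Its adjusted p in this fit was 0.0314 (edgeR quasi-likelihood test, Benjamini-Hochberg over 12722 genes). Cd79a averaged 153 ± 89.3 CPM in Ly6D+Gfra2+ (SD, n = 3), against 4.36 ± 2.31 CPM in Ly6D+Gfra2- (SD, n = 4), a log2 fold change of 5.04 (SE 0.84, edgeR adjusted p = 0.0159).

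The other receptor genes had log2 fold changes of 5.18 (SE 1.93) for Vpreb1, 4.99 (SE 1.85) for Vpreb2, 5.55 (SE 1.88) for Vpreb3 and 0.92 (SE 0.99) for Cd79b. Their edgeR adjusted p-values were 0.256, 0.254, 0.214 and 0.751. Among the signalling genes the log2 fold change was 1.42 (SE 0.38) for Blnk, 1.05 (SE 0.61) for Blk and -0.21 (SE 0.22) for Syk, with edgeR adjusted p-values of 0.111, 0.489 and 0.746. So 2 of the 9 genes passed, both higher, where 0.409% of all genes tested passed and 0.204% passed in the higher direction. Ly6D+Gfra2+ did not overlap Ly6D+Gfra2- and was higher for 7 of the 9, against 4.0% of all genes. In Ly6D+Gfra2-, Igll1 reached the filter on low counts in 0 libraries and each Vpreb gene in 2, and in Ly6D-Gfra2- each of these genes reached it in 1. Igll1 therefore owed its place in the test wholly to Ly6D+Gfra2+, and the Vpreb genes largely. The p-values and calls of Igll1, here and below, are thus given as a description. The 9 genes were also listed with earlier results known, so these counts are given as a description.

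Within prefix T alone, Igll1 kept its call (adjusted p = 0.0452, edgeR), while Cd79a had a log2 fold change of 4.64 with an adjusted p of 0.0546. With 1 library left out, the Igll1 call held in 10 of 13 fits and the Cd79a call in 11 of 13, where the log2 fold change of Cd79a ran from 4.48 to 5.35 over all 13. Without Ly6D+Gfra2- replicate 5 or 6 neither gene passed (edgeR adjusted p = 0.128 and 0.163 for Igll1, 0.0634 and 0.0534 for Cd79a), and without Ly6D+Gfra2+ replicate 5 Igll1 had an adjusted p of 0.0553.

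The comparison of Ly6D+Gfra2+ with Ly6D-Gfra2- cells spans both sort markers. Igll1, Vpreb1, Cd79a, Blnk and Blk rose, and Vpreb2, Vpreb3, Cd79b and Syk did not pass. Igll1 averaged 109.5 ± 50.3 CPM in Ly6D+Gfra2+, against 0.185 ± 0.398 CPM in Ly6D-Gfra2- (SD, n = 3 and 6), a log2 fold change of 8.14 (SE 1.26, edgeR adjusted p = 0.00881). Its counts were 2840 against 13, a scaled ratio of 675 with a 95% counting interval of 394 to 1269, and 7467 (1339 to 295039) without replicate 5. Vpreb1 averaged 33.2 ± 11.3 CPM against 0.542 ± 0.992 CPM in Ly6D-Gfra2-, a log2 fold change of 7.42 (SE 1.76, edgeR adjusted p = 0.0470). Cd79a averaged 153 ± 89.3 CPM against 0.428 ± 0.348 CPM in Ly6D-Gfra2-, a log2 fold change of 8.23 (SE 0.91, edgeR adjusted p = 0.000166).

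Vpreb2 averaged 19.8 ± 14.3 CPM in Ly6D+Gfra2+, against 0.341 ± 0.717 CPM in Ly6D-Gfra2-, a log2 fold change of 6.77 (SE 2.05) with an edgeR adjusted p of 0.120. Vpreb3 averaged 84.9 ± 11 CPM in Ly6D+Gfra2+, against 1.003 ± 1.93 CPM in Ly6D-Gfra2-, a log2 fold change of 5.88 (SE 1.56) with an edgeR adjusted p of 0.0750. For Vpreb3 the scaled ratio of counts was 98.3 (95% counting interval 77.5 to 127) over all libraries and 532 (297 to 1068) without Ly6D-Gfra2- replicate 5. Both genes had most of their Ly6D-Gfra2- counts in a single library, 37 of 39 in the library labelled replicate 3 for Vpreb2 and 59 of 70 in replicate 5 for Vpreb3.

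Blnk averaged 537 ± 164 CPM in Ly6D+Gfra2+, against 168 ± 129 CPM in Ly6D-Gfra2-, a log2 fold change of 2.37 (SE 0.38, edgeR adjusted p = 0.00442). Blk averaged 113 ± 3.71 CPM in Ly6D+Gfra2+, against 19.1 ± 19.3 CPM in Ly6D-Gfra2-, a log2 fold change of 3.46 (SE 0.67, edgeR adjusted p = 0.0193). Cd79b averaged 68.7 ± 52.5 CPM in Ly6D+Gfra2+, against 19.98 ± 15.7 CPM in Ly6D-Gfra2-, a log2 fold change of 1.89 (SE 0.80, edgeR adjusted p = 0.271). Syk did not overlap between the groups, yet its log2 fold change was only 0.39 (SE 0.21, edgeR adjusted p = 0.382).

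In all, 5 of the 9 genes passed, all higher, where 1.39% of all genes passed and 0.928% in the higher direction. The groups did not overlap for 7 of the 9, against 4.03% of all genes tested. Outside Ly6D+Gfra2+, Igll1 reached the filter on low counts (1.02 CPM of the library size before TMM scaling) in 1 library and each Vpreb gene in 3. Igll1 owed its place in the test wholly to Ly6D+Gfra2+ and the Vpreb genes largely, so the counts and the Igll1 call are given as a description. The median log2 fold change of the 9 genes was 5.88, and that of all 12722 genes was 0.01.

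Within prefix T the log2 fold changes were 8.02 for Igll1 (adjusted p = 0.00786, edgeR), 8.74 for Cd79a (0.00031), 2.61 for Blnk (0.00163), 3.96 for Blk (0.00891) and 7.004 for Vpreb1 (0.0590). Leaving out 1 library ended the Vpreb1 call in 9 of 13 fits, the Blk call without Ly6D-Gfra2- replicate 4, 5 or 6 (edgeR adjusted p = 0.0612, 0.0811 and 0.0691) and the Igll1 call without Ly6D-Gfra2- replicate 4 (0.0508), whereas without replicate 3 Vpreb2 passed with a log2 fold change of 8.24 (0.0261).

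The comparison of Ly6D+Gfra2- with Ly6D-Gfra2- cells asks what goes with Ly6D where Gfra2 is absent. None of the 9 genes passed the edgeR test, and neither did any other gene (0.00% of 12722), although 599 genes had an unadjusted p under 0.05 and DESeq2 called 54 genes and limma voom 1. At an unadjusted p under 0.05, Cd79a, Blnk, Blk and Syk were 4 of the 9, all higher, against 4.71% of all genes tested and 2.66% in the higher direction. Cd79a averaged 4.36 ± 2.31 CPM in Ly6D+Gfra2- (SD, n = 4), against 0.428 ± 0.348 CPM in Ly6D-Gfra2- (SD, n = 6), a log2 fold change of 3.19 (SE 0.67, edgeR adjusted p = 0.659). Blk averaged 76.0 ± 19.2 CPM in Ly6D+Gfra2-, against 19.1 ± 19.3 CPM in Ly6D-Gfra2-, a log2 fold change of 2.42 (SE 0.54, edgeR adjusted p = 0.659). By p-value Cd79a ranked 2 and Blk 3 in the whole table.

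For Blnk the log2 fold change was 0.94 (SE 0.30), and for Syk 0.60 (SE 0.17), each with an edgeR adjusted p of 0.807. For Igll1, with 1 count in Ly6D+Gfra2- and 13 in Ly6D-Gfra2-, both groups were near the counting floor. The log2 fold change was 2.24 (SE 1.37) for Vpreb1, 1.78 (SE 1.55) for Vpreb2, 0.34 (SE 1.29) for Vpreb3 and 0.97 (SE 0.74) for Cd79b, each with an edgeR adjusted p of 0.999. Of the 220 Vpreb1 counts in Ly6D+Gfra2-, 206 were in replicate 1, and the Vpreb1 value ran from 0.08 to 4.17 with 1 library left out. Vpreb2 and Vpreb3 were also low, with medians of 0.978 and 0.609 CPM in Ly6D+Gfra2- and 0.0595 and 0.124 CPM in Ly6D-Gfra2-. Cd79a and Syk did not overlap between the groups and were higher in Ly6D+Gfra2-, 2 of 9 against 0.582% of all genes.

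The library labelled Ly6D-Gfra2- replicate 3 carried Ly6d against its label and is singled out here for that, after seeing the data. When it was left out, 3 of the 9 genes passed, where 0.127% of all genes did. They were Cd79a with a log2 fold change of 3.83 (edgeR adjusted p = 0.0325), Blnk with 1.26 (0.0354) and Blk with 2.79 (0.0313). Without replicates 3 and 5 together, a choice made after seeing the data, the same 3 had adjusted p-values of 0.120, 0.165 and 0.120. Within prefix T their log2 fold changes were 4.10, 1.5 and 3.44, and within prefix P, which holds that library, 2.33, 0.35 and 1.26, with none passing. Among the 9 genes DESeq2 called Cd79a (adjusted p = 0.000619) and Blk (0.00168) with all libraries included, and limma voom called none.

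**Figure D4:**
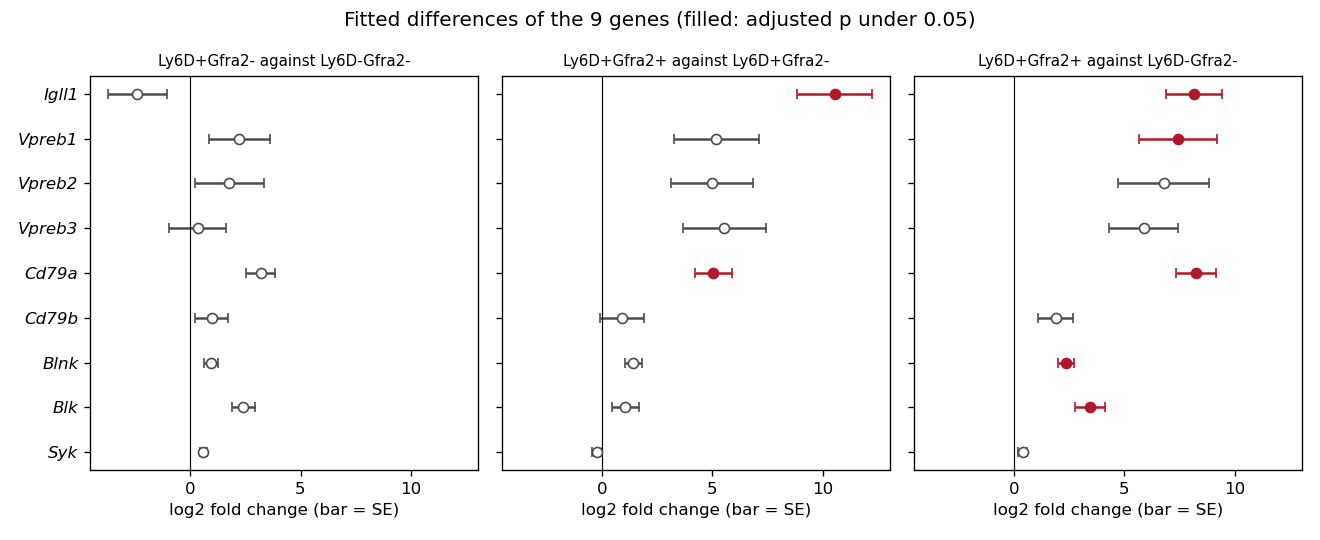
Fitted log2 fold change of the 9 genes in the 3 comparisons, each named with the group on top of the ratio first, with bars of 1 SE; filled points passed an adjusted p of 0.05. Cd79a was above 0 in all 3 panels (3.19, 5.04 and 8.23), Syk lay between -0.21 and 0.60, and the value of Igll1 against Ly6D+Gfra2- rests on 1 count there and depends on the fit's prior count.

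Tested once for any difference among the 3 groups, 4 of the 9 genes passed, where 0.605% of all genes did. They were Cd79a (edgeR adjusted p = 0.000795), Igll1 (0.00467), Blnk (0.0167) and Blk (0.0468). Vpreb1 had an adjusted p of 0.124, Vpreb3 of 0.171, Syk of 0.213, Vpreb2 of 0.239 and Cd79b of 0.470. Without Ly6D-Gfra2- replicate 4, 5 or 6, 2 of the 9 passed, where 0.206%, 0.207% and 0.190% of all genes did. The limit set by the filter on low counts holds here too for Igll1.

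Among marker lists of other cells, the summed level of later B-cell genes was higher, and that of granulocyte and monocyte genes lower, in every Ly6D+Gfra2+ library than in any Ly6D-Gfra2- library. The sums of T-cell, NK and erythroid markers overlapped between all groups, and no test was run on the sums. Of 8 genes of later B cells, 3 to 6 had counts in a Ly6D+Gfra2+ library, 3 to 5 in Ly6D+Gfra2- and 2 to 6 in Ly6D-Gfra2-, and their summed level was 350.5 to 628 CPM in Ly6D+Gfra2+, 139 to 364 in Ly6D+Gfra2- and 90.3 to 251 in Ly6D-Gfra2-. Most of this sum was Cd37, which many leukocytes carry. Ms4a1, which encodes CD20 of mature B cells, was at 0 in all 13 libraries, and Fcmr was at 0 in all 3 Ly6D+Gfra2+ libraries. Pax5, the factor that fixes B-cell identity, was at 90.5, 53.8 and 101 CPM in Ly6D+Gfra2+ and at 0.152 to 0.710 CPM in Ly6D+Gfra2-. In Ly6D-Gfra2- it was at 6.62 CPM in the library labelled replicate 3 and at most 0.357 CPM in the others.

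Summed markers of plasmacytoid dendritic cells, of which 6 to 8 of 8 had counts, were at 556 to 905 CPM in Ly6D+Gfra2+, 1899 to 2170 in Ly6D+Gfra2- and 809 to 2149 in Ly6D-Gfra2-. Those of granulocytes and monocytes, with 3 to 9 of 10 counted, were at 207 to 436 CPM in Ly6D+Gfra2+, 391 to 577 in Ly6D+Gfra2- and 590 to 1480 in Ly6D-Gfra2-. Erythroid and megakaryocyte markers, with 0 to 8 of 9 counted, were at 0 to 54.8 CPM in Ly6D+Gfra2+, 1.40 to 39.2 in Ly6D+Gfra2- and 3.37 to 329.5 in Ly6D-Gfra2-. T-cell markers, with 2 to 6 of 8 counted, were at 50.6 to 86.7 CPM in Ly6D+Gfra2+, 52.9 to 131 in Ly6D+Gfra2- and 51.5 to 104 in Ly6D-Gfra2-, of which Lck made up 33.0 to 131. Markers of NK and innate lymphoid cells, with 1 to 5 of 7 counted, were at 14.7 to 137 CPM in Ly6D+Gfra2+, 48.2 to 72.5 in Ly6D+Gfra2- and 55.5 to 80.1 in Ly6D-Gfra2-. The part of these markers in the results for the 9 genes was not tested.

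Genes around the receptor were read from 5 lists, of which called genes are given, or else those with the smallest p. Among 20 transcription factors known to act on these genes, 2 rose in Ly6D+Gfra2+ against Ly6D+Gfra2-. Pou2af1, the B-cell coactivator of octamer-binding factors, was at 963, 1218 and 931 CPM in Ly6D+Gfra2+ and at 0.0649, 0.102, 1.12 and 45.0 CPM in Ly6D+Gfra2-, a log2 fold change of 6.28 (edgeR adjusted p = 0.0336). Foxo1, a factor needed for early B-cell genes, was at 639, 965 and 450 CPM in Ly6D+Gfra2+ and at 138, 67.8, 193 and 222 CPM in Ly6D+Gfra2-, a log2 fold change of 1.82 (edgeR adjusted p = 0.0471). Both were non-overlapping between these groups, like the 4 surrogate light chain genes and Cd79a.

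Against Ly6D-Gfra2-, 5 of the 20 factors rose in Ly6D+Gfra2+. They were Foxo1 (log2 fold change 2.97, edgeR adjusted p = 0.000627), Ebf1, which starts the B-cell programme (4.66, 0.00325), Pou2af1 (8.46, 0.0126), Myb, a factor of early haematopoietic progenitors (0.82, 0.0231), and Irf4, a factor of pre-B and plasma cells (4.0, 0.0336). Ebf1 was at 891, 876 and 754 CPM in Ly6D+Gfra2+ and between 9.21 and 127 CPM in Ly6D-Gfra2-, the highest again being the library labelled replicate 3. The list's median log2 fold change was 0.42 against Ly6D+Gfra2- and 0.58 against Ly6D-Gfra2-. Between Ly6D+Gfra2- and Ly6D-Gfra2- none passed, and the smallest p-values were those of Foxo1 (1.15) and Spib (4.93), each with an edgeR adjusted p of 0.807.

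Of 11 other activating kinases and receptors tested out of 12 listed, Il7r, the interleukin-7 receptor chain of lymphoid progenitors, rose in Ly6D+Gfra2+ against Ly6D-Gfra2- (log2 fold change 1.19, edgeR adjusted p = 0.0228). Against Ly6D+Gfra2- none passed, with Cd81 at 1.03 (edgeR adjusted p = 0.176) nearest. The medians of this list were -0.41 and 0.60 against Ly6D+Gfra2- and Ly6D-Gfra2-, and 0.26 for Ly6D+Gfra2- against Ly6D-Gfra2-, where Il7r (0.62, edgeR adjusted p = 0.807) and Ptprc (0.33, 0.999) had the smallest p.

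Of 25 adaptors and second messengers, Itpr2, a calcium-release channel, rose against Ly6D-Gfra2- (1.43, edgeR adjusted p = 0.0366). None passed against Ly6D+Gfra2-, where Lcp2, the T-cell and myeloid relative of Blnk, was at -3.76 (edgeR adjusted p = 0.194). Lcp2 was at 0.115, 0.359 and 8.23 CPM in Ly6D+Gfra2+. In Ly6D+Gfra2- replicates 1, 2, 5 and 6 it was at 1.30, 76.0, 49.2 and 30.6 CPM, and Ly6D-Gfra2- libraries ran between 48.8 and 129 CPM. The list medians were 0.15 against Ly6D+Gfra2-, 0.12 against Ly6D-Gfra2-, and 0.04 between those 2 groups, where Prkcd (-0.87, edgeR adjusted p = 0.988) and Itpr2 (0.55, 0.999) had the smallest p.

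Of 20 inhibitors tested out of 21 listed, 3 rose in Ly6D+Gfra2+ against Ly6D-Gfra2-. They were the lipid phosphatase gene Inpp5d (1.08, edgeR adjusted p = 0.0133), the tyrosine phosphatase gene Ptpn22 (1.82, 0.0149) and the ubiquitin ligase gene Cblb (1.31, 0.0367). Inpp5d was at 433, 624 and 652 CPM in Ly6D+Gfra2+ and between 261.2 and 336 CPM in Ly6D-Gfra2-, with no overlap. None passed against Ly6D+Gfra2-, with Inpp5d (0.73, edgeR adjusted p = 0.157) and Pag1 (-0.71, 0.256) nearest. The list medians were 0.03 against Ly6D+Gfra2-, 0.16 against Ly6D-Gfra2- and 0.27 between those 2 groups, where Cblb (0.78) and Ptpn22 (0.89) had an edgeR adjusted p of 0.807.

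The counterpart receptor of T-cell precursors served as a contrast. Of its 10 genes, 4 of which also stand in the lists above, 5 were tested and none passed in any comparison, Lcp2 coming nearest in all 3. Ptcra, the surrogate alpha chain of the pre-T-cell receptor, had counts in 1 of 13 libraries, a single count at 0.0486 CPM in Ly6D-Gfra2- replicate 3. Cd3e, Cd3d and Cd3g were at most 1.69 CPM in any library. The list medians were -0.32 and -0.14 for Ly6D+Gfra2+ against Ly6D+Gfra2- and Ly6D-Gfra2-, and 0.18 for Ly6D+Gfra2- against Ly6D-Gfra2-. The medians of all genes in the 3 comparisons were 0.03, 0.01 and -0.01.

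**Figure D5:**
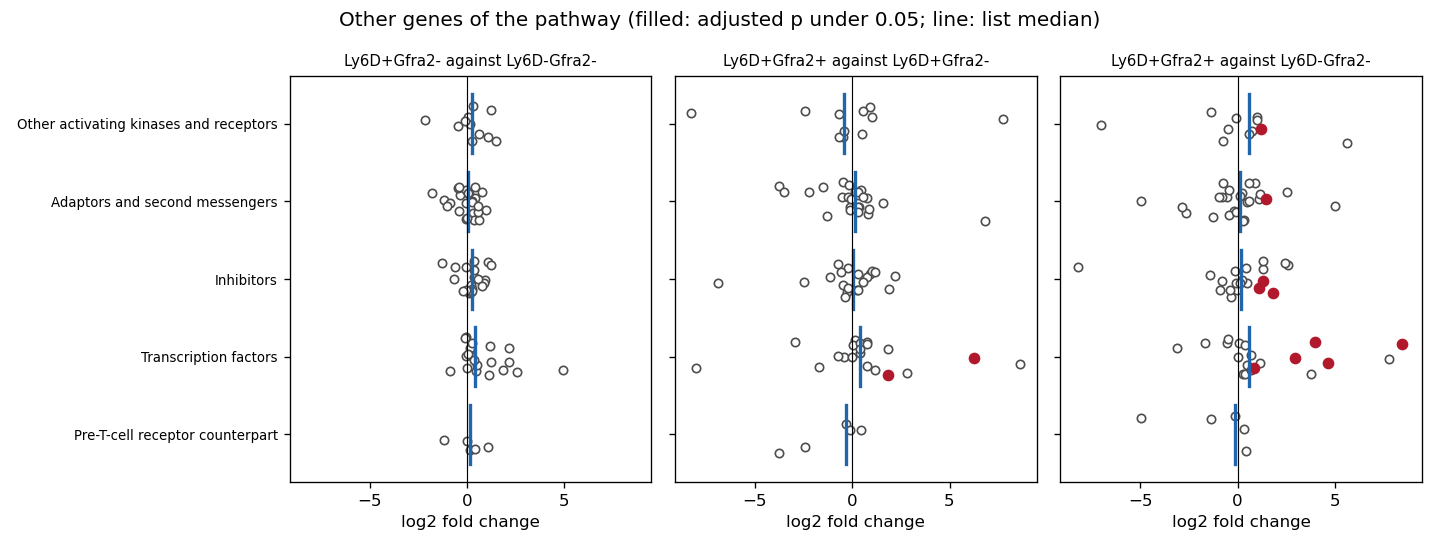
Fitted log2 fold change of every tested gene of the 5 pathway lists in the 3 comparisons, with filled points for an adjusted p under 0.05 and a line at each list's median. All filled points lie above 0, 2 of them against Ly6D+Gfra2- and 10 against Ly6D-Gfra2-, and every list median lies between -0.41 and 0.60.

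Across the 13 libraries, the levels of the receptor genes went together unequally. Pearson's r of log2(CPM + 1) was 0.97 between Igll1 and Vpreb3, 0.96 between Vpreb2 and Cd79a, 0.91 between Igll1 and Cd79a and 0.86 between the neighbours Igll1 and Vpreb1. The near-identical Vpreb1 and Vpreb2 had an r of 0.79, lower than that of Vpreb2 with any of Igll1, Vpreb3 or Cd79a. Cd79a and Cd79b had an r of 0.56. Of the signalling genes Blnk and Blk had an r of 0.92, Syk with Blk 0.72 and Syk with Igll1 0.19. These describe 13 libraries in 3 groups that share group, prefix and depth, and the step between groups enters every r.

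Over 11058 other genes with at least 5 CPM in some group, those most like Igll1 included Ifi214 (r = 0.98) and Dlg2 (0.98). Those most like Vpreb3 included Pou2af1 (0.94) and Ifi214 (0.94). For Vpreb2 they were Pax5 (0.96), Gfra2 itself (0.95) and the recombinase gene Rag1 (0.93), and for Cd79a they were Rag1 (0.95), Pou2af1 (0.94) and Pde2a (0.93). Vpreb1 was most like Tsn (0.93), Atp1b3 (0.92) and Mta3 (0.91), none of them shared with another receptor gene.

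The signalling genes and Cd79b had other companions. Blnk was most like Gpr25 (r = 0.95), Ly6e (0.95) and Cecr2 (0.92), and Blk most like Mgst2 (0.95), Il7r (0.89) and Cblb (0.89). Cd79b reached no more than 0.84 with Tnpo3, 0.82 with Nufip2 and 0.80 with Hilpda. Syk was most like Klrd1 (0.82), Chst3 (0.81) and Ppp1r16a (0.80), over the same 13 libraries.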

How the data were processed

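RNA sequencing counts were deposited for 13 libraries. Per the file headers, each deposited file gives 1 library's raw count for every RefSeq identifier. Per the submitters' processing notes, FastQC, HISAT, TopHat, HOMER and DESeq were used with the mm10 build, with no role, order or version. The annotation, strand setting and treatment of reads that fit several places are not given in the sources used here. Gene names came from RefSeq's GRCm38.p6 table (23815 identifiers) and GENCODE M21 (144), and 113 stayed unnamed.

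The members and lists were chosen with earlier results of these data known. Counts were tested with edgeR 4.0.16 (R 4.3.3): all 13 libraries in 1 quasi-likelihood fit, terms for group and name prefix, TMM scaling, and filterByExpr (10 counts at least, 15 in total), which kept 12722 of 24072 genes and all 9 members. Calls needed an adjusted p under 0.05 (two-sided, Benjamini-Hochberg over all genes kept), and the fit was tested on simulated data. Fold changes are log2 values, the group named first over the second. No pair of libraries within a group agreed within sampling noise (lowest chi-square per degree of freedom 44.2 over 24 pairs). All 9 members were named, with the called genes of each list or else the 2 with the smallest p, and for each member the 3 other genes of highest r. Some genes that this rule names are not reported here. Alternatives were limma 3.58.1 voom, DESeq2 1.42.0, other scalings, filters and covariates, subsets, and each library left out in turn. Promoters came from the RefSeq promoter table. Protein sequences and promoters of Cd79b and Blk were not used here.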

Additional observations from a re-analysis of the deposited data

Results flagged for a closer look

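In 7 of 18 sets of values examined, each a gene in Ly6D+Gfra2- or Ly6D-Gfra2-, the highest library stood further from its group than Dixon's 95% limit. For normally distributed values about 1 in 20 groups would by chance. All flagged sets other than that of Blnk hold mostly libraries with few or no counts, and for such sets this rate does not apply. The 7 of 18 are therefore not read as an excess of outlying libraries. The group of 3 Ly6D+Gfra2+ libraries is too small for this rule. The part of any cell mixture or library preparation in these values was not tested.

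The library labelled Ly6D-Gfra2- replicate 3 stood apart for 3 genes. It held 2.529 CPM of Vpreb1, with the next library at 0.476, 1.80 CPM of Vpreb2, with the next at 0.130, and 420.2 CPM of Blnk, with the next at 176 CPM. It is also the library with 213 CPM of Ly6d.

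Ly6D-Gfra2- replicate 5 stood apart for 2 genes, with 0.992 CPM of Igll1 (next library 0.119) and 4.876 CPM of Vpreb3 (next library 0.895).

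Ly6D+Gfra2- replicate 1 held 13.37 CPM of Vpreb1, with the next library at 1.01 CPM, and no count of Igll1, Vpreb2 or Vpreb3. Ly6D+Gfra2- replicate 5 stood apart for Igll1 at 0.0933 CPM, which is 1 count beside 3 libraries at 0.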

How the results depend on the processing

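Of 652 values of the 27 single-gene fold changes under 25 alternatives, 644 kept their direction and 600 also their side of the threshold. The 8 reversals were small values in Ly6D+Gfra2- against Ly6D-Gfra2-. Vpreb3 (0.34) was at -0.15 without the prefix term, -0.53 in prefix T alone and -1.08 to 2.02 with 1 library left out. Cd79b (0.97) was at -0.17 in prefix T alone and -0.00325 to 1.48 with 1 library left out.

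Genes passing in that comparison numbered 0, but 2 without the filter on low counts, 2 with DESeq2 and 0 to 3 with 1 library left out. In Ly6D+Gfra2+ against Ly6D+Gfra2- there were 2, with 4 by DESeq2, 3 without that filter, 1 by limma voom (Cd79a adjusted p = 0.0719), 1 in prefix T alone and 0 to 2 with 1 library left out. In Ly6D+Gfra2+ against Ly6D-Gfra2- there were 5, with 7 by limma voom, 6 by DESeq2, 6 without the filter, 4 with library size alone, 4 in prefix T alone and 2 to 6 with 1 library left out. The joint test had 4, with 6 by DESeq2, 6 without the filter, 3 with library size alone, 3 without the prefix term and 2 to 4 with 1 library left out. Cd79a in Ly6D+Gfra2+ against Ly6D-Gfra2- was called in all 24 alternatives, with a log2 fold change of 7.70 to 8.80. The cause of these shifts was not tested. Igll1 could not be fitted in prefix P alone, and 5 of 9 genes were tested with only Ly6D+Gfra2- and Ly6D-Gfra2- in the fit.

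With the replicate number as a block in place of the prefix, 0, 1, 5 and 4 genes passed in Ly6D+Gfra2- against Ly6D-Gfra2-, Ly6D+Gfra2+ against Ly6D+Gfra2-, Ly6D+Gfra2+ against Ly6D-Gfra2- and the joint test, and Cd79a had an adjusted p of 0.0505 in the second. Deviations of same-numbered libraries had r of 0.063 to 0.137, -0.028 to 0.010 and -0.011 to 0.015 in the 3 comparisons. Libraries of different number within a prefix had r of 0.021 to 0.089 in the first. The names of prefix T libraries also carry an S number in step with the replicate number, whose meaning is not stated. These r do not settle whether same-numbered libraries are paired, and the main fit used no pairing.

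Over all genes, edgeR called 0, 52 and 177 in the 3 comparisons, DESeq2 54, 700 and 940, and limma voom 1, 25 and 109. No filter gave 9, 164 and 318, the block 8, 25 and 92, and prefix T alone 1, 9 and 62. With 1 library left out the numbers ran from 0 to 16, 12 to 184 and 49 to 372. The joint test called 77 genes, and 24 to 138 with 1 library left out. Scaling by library size alone moved the median of all genes to -0.09, -0.15 and -0.25 and the split of higher against lower calls to 15 and 33 against Ly6D+Gfra2- (26 and 26 with TMM) and to 45 and 66 against Ly6D-Gfra2- (118 and 59). No direction of the 9 genes changed under it. Igll1 and the Vpreb genes outside Ly6D+Gfra2+ are limited by depth, with 3 counts worth up to 0.389 CPM.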
